A study of Mus musculus with 16 samples.

Results

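Nuclei of brain mural cells, the pericytes and smooth muscle cells that wrap blood vessels, were sought in a single-nucleus RNA-seq series of the mouse hippocampus. A barcode counted as a nucleus with at least 500 unique molecular identifiers (UMIs, counted RNA molecules), at least 300 detected genes and at most 5% of UMIs from mitochondrially encoded genes. A nucleus was selected when Pdgfrb, Rgs5, Abcc9, Notch3 and Atp13a5 together had at least 3 UMIs. Nuclei were left out with more than 1 UMI of Slc17a7, Gad1 and Gad2 (neurons), more than 1 of Mog and Mag (oligodendrocytes), more than 1 of Flt1 (endothelium) or more than 2 of Col1a2 and Bnc2 (fibroblasts). This rule kept 1019 of 147873 nuclei, 28 to 102 per library, and no selected barcode was shared between libraries. The 16 libraries came from female mice aged 9 months, 4 libraries in each of 4 groups that combine intact (Ch25h+/+) or lost (Ch25h-/-) Ch25h with a Tau+ or a Tau- genotype. Ch25h encodes cholesterol 25-hydroxylase, the enzyme that makes 25-hydroxycholesterol, and was intact in the +/+ groups and disrupted in the -/- groups. Tau+ and Tau- stand for presence and absence of the tau genotype. The labels name neither the tau line, the cells that express its transgene, the extent of the Ch25h deletion nor a batch, and no label states that the libraries of a group come from separate mice, so p-values measure the spread between these libraries. Total depth was 51270831 to 84870650 UMIs per library.

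Pericytes sit in the capillary basement membrane, share it with the endothelium, and depend on PDGF-B that endothelial cells release and that binds PDGFR-beta on the pericyte. They take part in keeping the blood-brain barrier and in setting capillary tone. Smooth muscle cells on arteries and arterioles differ by a contractile apparatus built from smooth muscle actin, myosin heavy chain and their partners.

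Clustering of the selected nuclei by all their genes showed that the rule gathered several cell types. Clusters led by pericyte genes held 445 nuclei (43.7% of those selected, median 1051 UMIs per nucleus and 10 UMIs of the rule genes). These are called pericyte-like. Astrocyte-like clusters held 331 nuclei (32.5%), fibroblast-like clusters 110, neuron-like clusters 72 and choroid plexus or ependymal-like nuclei 27. A cluster of 34 nuclei was given no name. Names rest on marker lists, and the genes that define a cluster are descriptions without a test. The label mural cells therefore held for less than 1 in 2 of the selected nuclei, and results are given for all selected nuclei and for the pericyte-like nuclei.

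The mixture followed the number of rule-gene UMIs. At exactly 3 UMIs, just inside the threshold, there were 381 nuclei, of which 8 were pericyte-like and 253 astrocyte-like. Their summed level of 25 pericyte genes that the rule did not use (Vtn, Kcnj8, Cspg4 and others) was 23.7 UMIs per 10000, and their 8 astrocyte markers stood at 126.7 per 10000. At 10 or more UMIs there were 283 nuclei, 255 of them pericyte-like. There the same pericyte genes reached 220.6 per 10000 and the astrocyte markers 11.5 per 10000. Just outside the threshold, 1573 nuclei had 2 UMIs of the rule genes. Kcnj8, an ATP-sensitive potassium channel subunit of pericytes, stood at 0.302 CPM (counts, here UMIs, scaled to 1000000 per library) in those nuclei and at 410 ± 168 (SD, n = 16 libraries) in the pericyte-like nuclei. Kcnj8 is on the list that named the pericyte-like clusters, so this is a description. It does not compare the nuclei just outside the threshold with those just inside.

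**Figure D1:**
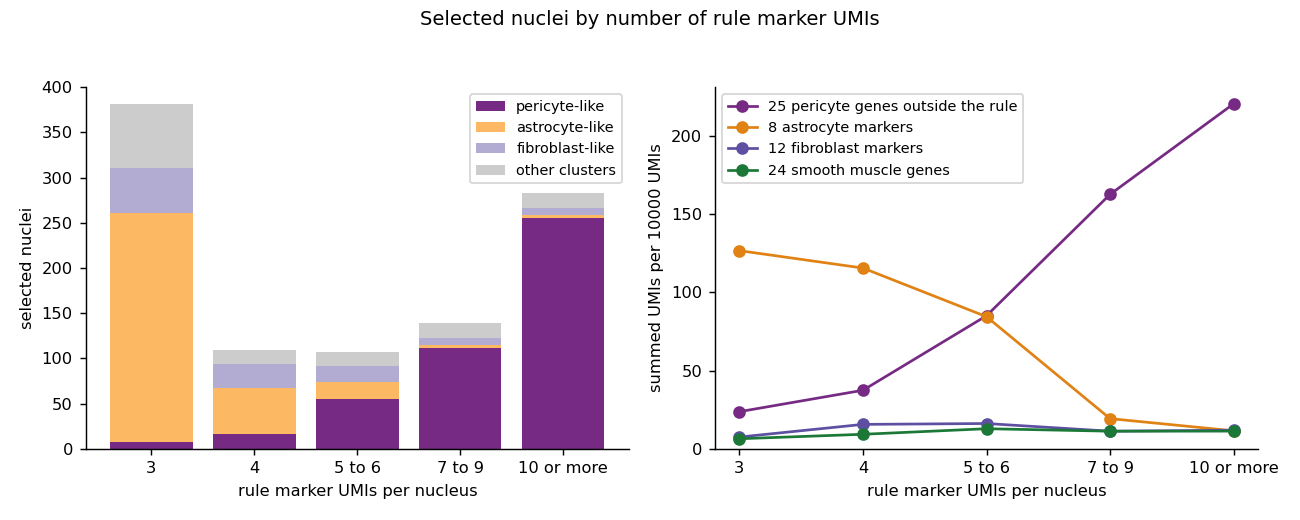
Left, number of selected nuclei by their rule marker UMIs, with bars divided by cluster name. Right, summed UMIs per 10000 of 4 marker lists in the same bins. Of the 381 nuclei at 3 UMIs, 8 were pericyte-like, against 255 of the 283 nuclei at 10 or more.

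The rule genes give the level of the part but, having chosen it, carry no test. Atp13a5 (chromosome 16, 29231851 to 29378732, mm10), a P5-type ATPase, stood at 5601 ± 814 CPM in the pericyte-like nuclei of the 16 libraries. The range ran from 4380 in the lowest library to 7238 in the highest. Pdgfrb, the PDGF-B receptor, stood at 1640 ± 341 and Notch3, the mural Notch receptor, at 969 ± 235. Abcc9, the sulphonylurea receptor subunit that pairs with Kcnj8, stood at 1061 ± 242, and Rgs5, a regulator of G-protein signalling, at 871 ± 228. In nuclei that were neither selected nor endothelial nor fibroblast, the means of these genes lay between 0.325 (Abcc9) and 7.31 (Notch3). Rgs5 had at least 1 UMI in 52.8% of pericyte-like nuclei (exact 95% interval 48.1 to 57.5). It had one in 0.328% of 143479 other nuclei, whose median library depth of 4929.75 UMIs was above the 1051 of the pericyte-like nuclei. Of the 445 pericyte-like nuclei, 89 held UMIs of all 5 rule genes and 17 of a single one. The intervals cover counting error only.

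Pericyte genes outside the rule were also high in these nuclei. The clusters were named from this list, so its levels are a description and no independent support. Vtn (chromosome 11, 78499091 to 78502324), which encodes the matrix protein vitronectin, stood at 4490 ± 2002 CPM against 16.5 in endothelial nuclei and 3.71 in the remaining nuclei. Its highest libraries were Ch25h-/- Tau- replicate 1 at 10652 and replicate 4 at 7730.5. The other 14 libraries lay between 2997 and 4979. Ebf1, a transcription factor of pericytes, stood at 2815 ± 697, Pde8b, a cAMP phosphodiesterase, at 3070 ± 522, and Slc38a11, an amino acid transporter, at 1410 ± 257. Carmn, a long non-coding RNA of mural cells, stood at 1233 ± 391. Each of these genes, with Cspg4 (the NG2 proteoglycan, 420 ± 122), was higher in pericyte-like than in endothelial, fibroblast and other nuclei in 16 of 16 libraries. Of the 25 genes of the list, 20 were higher than in endothelial nuclei in all 16 libraries, 16 than in fibroblast nuclei and 20 than in the remaining nuclei. Of all 15507 genes with a UMI in pericyte-like nuclei, 1.75% were above endothelial and 2.63% above the remaining nuclei in all libraries. That share was not computed for fibroblast nuclei. All 25 genes of the list had UMIs in the pericyte-like nuclei.

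**Figure D2:**
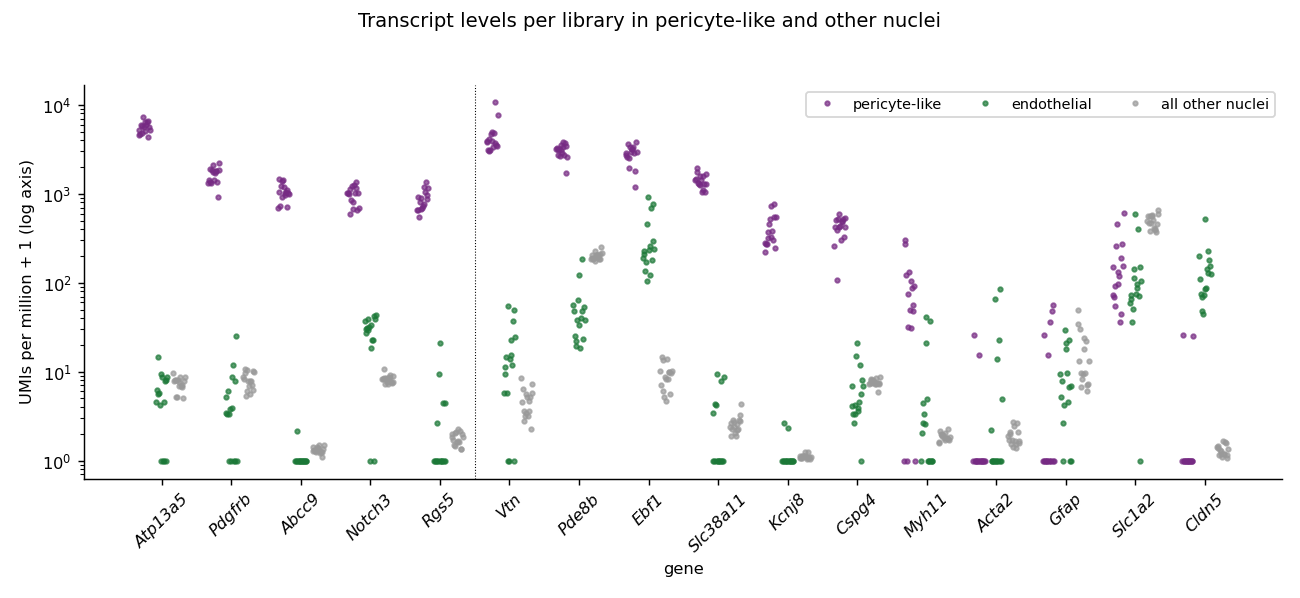
CPM plus 1 (log axis) of 16 genes, 1 point per library, in pericyte-like, endothelial and all other nuclei; the dotted line separates the rule genes on the left from the rest. Vtn, Kcnj8 and Cspg4 were high in pericyte-like nuclei of all 16 libraries, while Acta2 and Cldn5 stood at 0 in most of them.

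Smooth muscle transcripts were sparse. Counting a nucleus as contractile with 2 or more UMIs of Acta2, Tagln, Myh11, Cnn1, Lmod1 and Myocd, 18 of 1019 selected nuclei qualified (1.77%, exact 95% interval 1.05 to 2.78), 11 of them pericyte-like. Acta2, smooth muscle actin, had a UMI in 7 selected nuclei, and 1 nucleus carried 55 contractile UMIs. Myh11, smooth muscle myosin heavy chain, had a UMI in 32 of the 445 pericyte-like nuclei. Mylk (myosin light chain kinase) and Myl9 (a myosin light chain), which pericytes also use, stood at 265 ± 75.9 and 206 ± 105 CPM there. The contractile share of the selected nuclei was 2.0 ± 1.98% in Ch25h+/+ Tau+, 1.93 ± 1.70% in Ch25h+/+ Tau-, 1.28 ± 2.56% in Ch25h-/- Tau+ and 1.27 ± 1.47% in Ch25h-/- Tau- (SD, n = 4 libraries each). In the exact permutation tests of 6 effects, every adjusted p was 1.

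The unnamed cluster of 34 nuclei (median 1300 UMIs) had more Rgs5 (1445 CPM, summed over its nuclei) and Notch3 (1772) than the pericyte-like mean, and less Atp13a5 (886) and Vtn (1021). Its leading genes were Steap4, Thsd4, Stac, Pde3a and Ccdc3, and 9 of the 25 pericyte genes outside the rule passed the 2-fold level used for naming. A name needed only 3 such genes. A cluster far below the median depth of its libraries, here at 0.253 of it, also needed a gene of the list among its leading genes. This cluster had none and so stayed unnamed. Acta2 stood at 559 CPM in this cluster, but 1 of the 34 nuclei held all 29 of those UMIs. Ebf1 stood at 4855 and Prkg1, the cGMP-dependent kinase of vascular relaxation, at 6454. Among the pericyte-like nuclei, cluster 1 (323 nuclei) was led by Tbx2, Adap2, Slc38a11, Art3 and Carmn. Cluster 3 (122 nuclei) was led by Vtn, Kcnj8, Ndufa4l2, Cspg4 and mitochondrially encoded genes.

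Of 29 genes of vascular tone, 13 were higher in pericyte-like than in endothelial nuclei in all 16 libraries, and 13 were higher than in the remaining nuclei. Of all 15507 genes with a UMI in pericyte-like nuclei the shares were 1.75% and 2.63%, and of the 481 tested there 35.8% and 47.6%. Among the 15 vascular tone genes tested, 13 were above in each comparison (86.7%). Among the 25 with a UMI that are not in the pericyte list, 10 were above in each (40.0%). The list shares 3 genes with the one that named the clusters, and clustering used all genes, so these levels are a description and no independent support. The list summed to 12976 ± 943 CPM in pericyte-like, 2942 ± 871 in endothelial and 5971 ± 244 in the remaining nuclei. Prkg1 stood at 3748 ± 483 CPM, and Gucy1a2, a subunit of the nitric oxide receptor guanylate cyclase, at 1083 ± 298. Ednra, the endothelin receptor of mural cells, stood at 356 ± 129. These 3 genes were higher than in endothelial and in other nuclei in 16 of 16 libraries. Cacna1c, the L-type calcium channel that neurons share, stood at 1199 ± 312 and was above the remaining nuclei in 13 of 16 libraries. Matrix genes included the laminin chains Lama2 (1110 ± 281) and Lamc1 (629.6 ± 220) and the collagen receptor Itga1 (974 ± 214). Lama2 was above fibroblast nuclei in 9 of 16 libraries, Itga1 in 16. Among transporters, Slc30a10 (manganese export) stood at 700 ± 315 and Slc16a12 at 665 ± 215.

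Sterol genes were read for the study's subject. Ch25h had 0 UMIs in all 1019 selected nuclei in every group, so its disruption could not be checked in these nuclei. Cyp7b1, the hydroxylase that clears 25-hydroxycholesterol, stood at 331 ± 124 CPM in pericyte-like nuclei, above endothelial nuclei (72.9) in 16 of 16 libraries and above fibroblast (172) and the remaining nuclei (135) in 15 each. The other selected nuclei stood at 313. Apoe, the lipid carrier, stood at 406 ± 289, close to endothelial nuclei (421) and under the other selected nuclei (1685). It is abundant in the RNA of barcodes under 100 UMIs, at 2492 CPM, a measure of free RNA. Cyp51, an enzyme of cholesterol synthesis, stood at 39.2 ± 34.7.

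No difference in the share of nuclei passed the test after adjustment. Selected nuclei made up 0.884 ± 0.192% of all nuclei in Ch25h+/+ Tau+, 0.665 ± 0.354% in Ch25h+/+ Tau-, 0.616 ± 0.114% in Ch25h-/- Tau+ and 0.618 ± 0.330% in Ch25h-/- Tau- (SD, n = 4 libraries each). Pericyte-like nuclei made up 0.295 ± 0.0374%, 0.384 ± 0.252%, 0.258 ± 0.0151% and 0.271 ± 0.109% in the same order. Ch25h+/+ Tau- replicate 4 had the highest pericyte-like share, 0.751%, with 69 nuclei. Among Tau+ libraries, the selected share was lower without Ch25h by 0.268 percentage points, and the 2 groups did not overlap. Counted per 100 selected and endothelial nuclei the direction reversed, to 13.7 higher without Ch25h (exact permutation, adjusted p = 0.686). Endothelial nuclei numbered 122 to 213 per library in Ch25h+/+ Tau+ and 26 to 163 in Ch25h-/- Tau+, and their part in the reversal was not tested. The first difference had an exact permutation p of 0.0286, the smallest that 4 libraries against 4 allow, and adjusted over 6 effects it was 0.171. A single such p among the 6 cannot pass that adjustment, so the result does not show that the groups were alike. The adjusted p of the other 5 effects lay between 0.571 and 1.

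**Figure D3:**
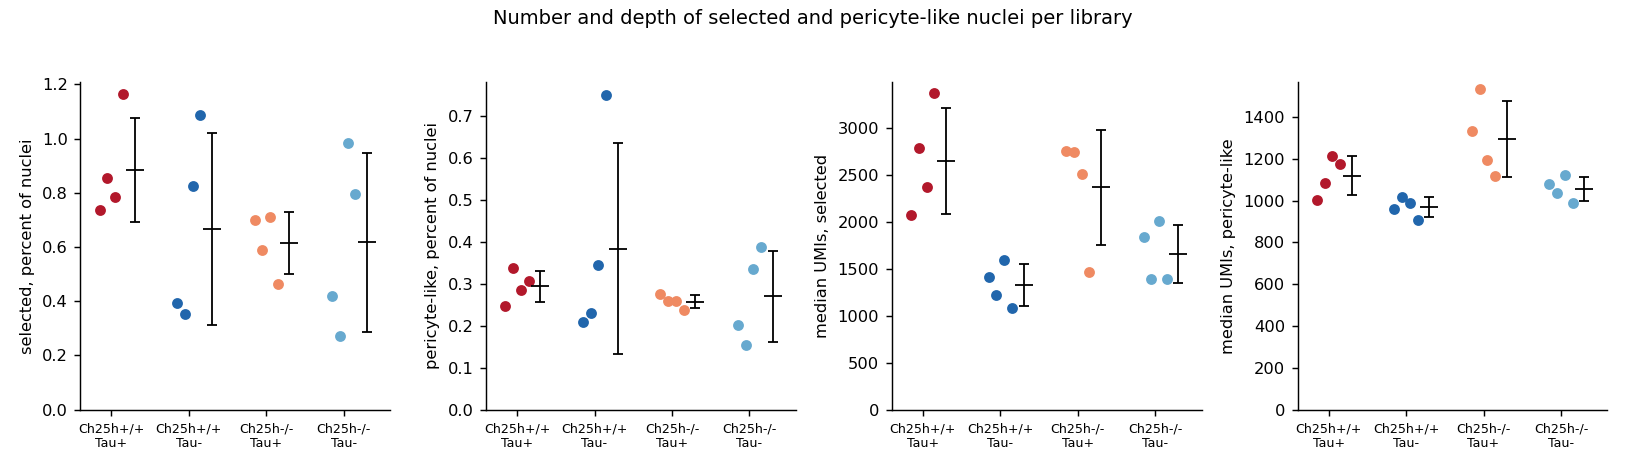
Selected and pericyte-like nuclei as a percent of all nuclei, and the median UMIs per nucleus, in each library; bars are mean and SD of 4 libraries. Median UMIs of selected nuclei were higher in Tau+ libraries by 1018 on average over both Ch25h genotypes, and of pericyte-like nuclei by 194.

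Depth per nucleus was a value the rule used, through its floors of 500 UMIs and 3 marker UMIs, and is given as a description. The median selected nucleus had 2655 ± 564 UMIs in Ch25h+/+ Tau+ and 1330 ± 225 in Ch25h+/+ Tau-, and these 2 groups did not overlap. It had 2373 ± 611 in Ch25h-/- Tau+ and 1661 ± 312 in Ch25h-/- Tau-, where the lowest Tau+ library, at 1473, lay within the Tau- range. Over both Ch25h genotypes the Tau+ median was higher by 1018 UMIs, and by 896 without scored doublets. Astrocyte-like nuclei, which hold more UMIs, made up 36.9 ± 8.0% of selected nuclei in Ch25h+/+ Tau+ and 38.4 ± 8.89% in Ch25h-/- Tau+. They made up 25.7 ± 7.02% and 22.5 ± 8.25% in the corresponding Tau- groups, and their part in the depth difference was not tested. Within pericyte-like nuclei the median was 1118 ± 93.8 and 1295 ± 182 in the Tau+ groups and 968.5 ± 46.4 and 1056 ± 58.2 in the Tau- groups (Ch25h+/+ first). The Tau+ median there was higher by 194 UMIs. The median over all nuclei of a library ran from 3846 to 5612 UMIs in Tau+ libraries and from 4170.0 to 6508 in Tau- libraries.

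In pericyte-like nuclei, genes encoded by the mitochondrial genome were lower in Tau+ libraries, and no gene was called higher. The rule had capped the mitochondrial share of a nucleus at 5%, so levels of these genes are a value the rule used. They are given as a description, without p-values, and calls of them support nothing. Summed per library, 481 genes passed the filter on low counts. Over both Ch25h genotypes, edgeR's quasi-likelihood test with Benjamini-Hochberg adjustment called 6 of them, 1.25% of those tested, all lower in Tau+. Of the 6, 5 were mitochondrially encoded: mt-Co1, mt-Atp6, mt-Nd2, mt-Cytb and mt-Nd4. The 7 mitochondrial genes tested, of 13 in the files, were all lower, with a median log2 fold change of -1.19 against 0.00 over all genes tested.

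mt-Co1 (chromosome M, 5328 to 6872), subunit 1 of cytochrome c oxidase, stood at 400.1, 100.5, 238 and 304 CPM in the Ch25h+/+ Tau+ libraries and at 749, 777, 1386 and 758 in Ch25h+/+ Tau-. It stood at 313, 596, 488 and 389 in Ch25h-/- Tau+ and at 710.1, 1423, 728 and 915 in Ch25h-/- Tau-. No Tau+ library reached the lowest Tau- library. Pericyte-like nuclei summed to only 18266 to 68597 UMIs per library, so these CPM values rest on small counts. The log2 fold change of mt-Co1 was -1.45 (SE 0.236). mt-Atp6, a subunit of ATP synthase, stood at -1.31 on the same scale (SE 0.223). Its Tau+ libraries lay between 301 and 925 CPM and its Tau- libraries between 948 and 2354, again without overlap. mt-Nd2, a complex I subunit, stood at -1.63 (SE 0.304). Its highest Tau+ library, at 327, stood above the lowest Tau- library, at 268.

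**Figure D4:**
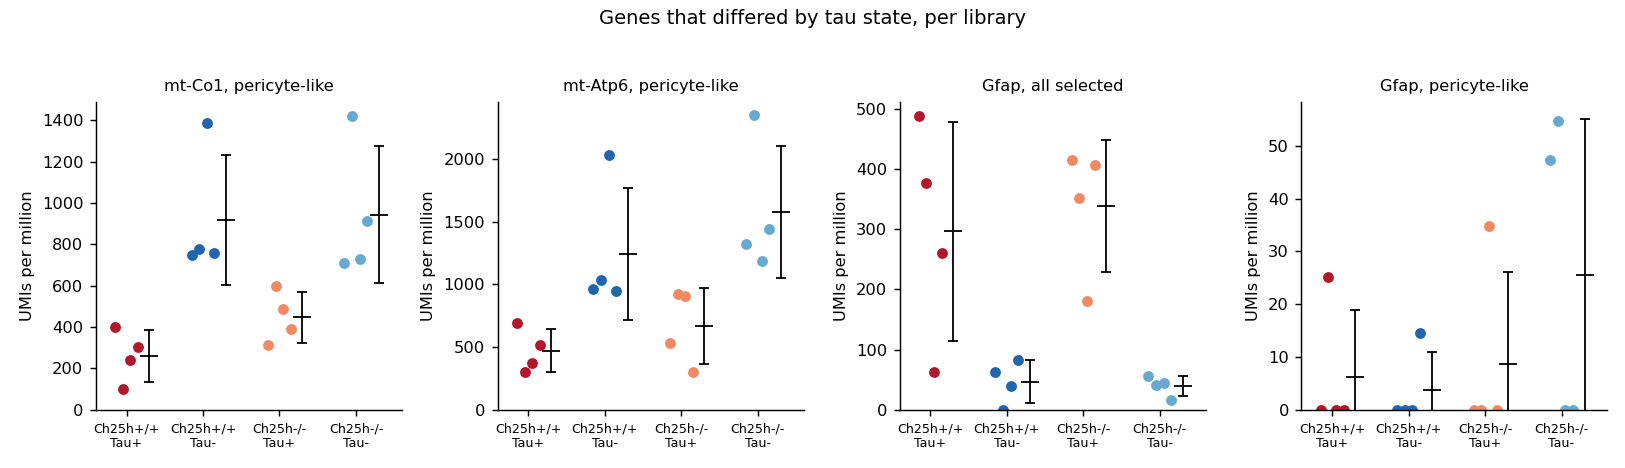
CPM of mt-Co1 and mt-Atp6 in pericyte-like nuclei and of Gfap in all selected and in pericyte-like nuclei, 1 point per library, with mean and SD of 4 libraries. Tau+ and Tau- libraries are separate for mt-Co1; Gfap is separate from 0 in selected nuclei of 15 of 16 libraries and at 0 in most libraries of pericyte-like nuclei.

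mt-Cytb, cytochrome b of complex III, stood at -1.16 and mt-Nd4, of complex I, at -1.19. The sixth gene called was the only one outside the mitochondrial genome. Gm42418, a non-coding RNA at a locus that overlaps ribosomal RNA repeat sequence, so that its reads cannot be told apart from ribosomal RNA, fell by 0.56 (edgeR adjusted p = 0.0414), a call lost in 12 of the 16 fits that leave out 1 library. The call counts that follow include genes of the mitochondrial genome, whose share the rule had capped, so they are a description and support nothing. DESeq2 called mt-Co1, mt-Atp6 and mt-Nd2 alone. Leaving out 1 library gave 3 to 9 calls, with 3 in 7 of these fits. The libraries left out in those 7 were replicates 2 and 4 of Ch25h+/+ Tau+, replicate 3 of Ch25h+/+ Tau-, replicates 1 and 4 of Ch25h-/- Tau+, and replicates 2 and 4 of Ch25h-/- Tau-. Within Ch25h+/+ mice, the genes called were mt-Co1 (-1.85) and mt-Atp6 (-1.42), 0.416% of the genes tested. Without Ch25h+/+ Tau- replicate 3 neither was, and 1 was without Ch25h+/+ Tau+ replicate 2, 3 or 4 or Ch25h-/- Tau- replicate 4. Within Ch25h-/- mice, 0 of 481 genes passed with edgeR, against 22 at an unadjusted p under 0.05, and DESeq2 on its own set of genes also called 0. mt-Nd2 stood at -1.83 there, and was the 1 gene called with a term for replicates 1 and 2 against 3 and 4 (-1.87). There were 4 calls when Ch25h-/- Tau- replicate 3 was left out and 2 when replicate 3 of Ch25h+/+ Tau- was. Leaving out replicate 1 or 2 of Ch25h+/+ Tau+, replicate 1 of Ch25h+/+ Tau- or replicate 4 of Ch25h-/- Tau- gave 1. The interaction of tau with Ch25h called 0 genes with either tool, and 16 had an unadjusted p under 0.05 with edgeR.

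The whole mitochondrially encoded share of UMIs was then compared across nuclei, a comparison chosen after the gene calls were seen and so not independent of them. The selection rule had itself limited this share to 5% per nucleus, so the share is given as a description, with no test. The limit removed 4 nuclei that otherwise met the rule, 0 of 544 in Tau+ and 4 of 479 in Tau- libraries. In pericyte-like nuclei it was 0.271 ± 0.122% in Ch25h+/+ Tau+ against 0.661 ± 0.239% in Ch25h+/+ Tau-, and 0.328 ± 0.120% in Ch25h-/- Tau+ against 0.762 ± 0.297% in Ch25h-/- Tau- (SD, n = 4 libraries each). The Ch25h+/+ groups did not overlap. In the Ch25h-/- groups 1 Tau+ library, at 0.467%, stood above the lowest Tau- library, at 0.458%. Over both genotypes the share was lower in Tau+ by 0.412 percentage points, written as a difference of -0.412. Leaving out 1 library gave differences from -0.463 to -0.346. The highest value, 1.16%, came from Ch25h-/- Tau- replicate 2, with 16 pericyte-like nuclei, and 1.02% from Ch25h+/+ Tau- replicate 3.

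The difference was also computed in other sets of these nuclei. Among the nuclei with 10 or more rule-gene UMIs, chosen without clustering, the share differed by -0.261 percentage points. Without the 5% limit, a setting added after seeing the data, it differed by -0.601, with Ch25h+/+ Tau- replicate 1 at 2.95% through 2 added nuclei. Without scored doublets, which number 0 to 22 per library among pericyte-like nuclei, it differed by -0.499. That set leaves 2 nuclei in Ch25h-/- Tau+ replicate 3, at 0%, and 3 in Ch25h-/- Tau- replicate 2. Ch25h+/+ Tau- replicate 2 keeps 5 and falls to 0.110%, below every Ch25h+/+ Tau+ library. Within Ch25h+/+ the difference was then -0.370. Cluster 3 had mitochondrial genes among its leading genes, beside Vtn, Kcnj8, Ndufa4l2 and Cspg4. It held 17.0% of the 200 pericyte-like nuclei of Tau+ libraries and 35.9% of the 245 of Tau- libraries. Its pooled mitochondrial share was 1.11% and 1.51%. In cluster 1 alone the share was 0.126 ± 0.0523% and 0.115 ± 0.0608% in the Tau+ groups and 0.205 ± 0.0344% and 0.210 ± 0.0375% in the Tau- groups (Ch25h+/+ first). The difference in cluster 1 was -0.0869 percentage points. Cluster 1 is the part of the pericyte-like nuclei with the lower pooled share, 0.124% in Tau+ and 0.199% in Tau- libraries. What divided the 2 clusters was not tested.

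**Figure D5:**
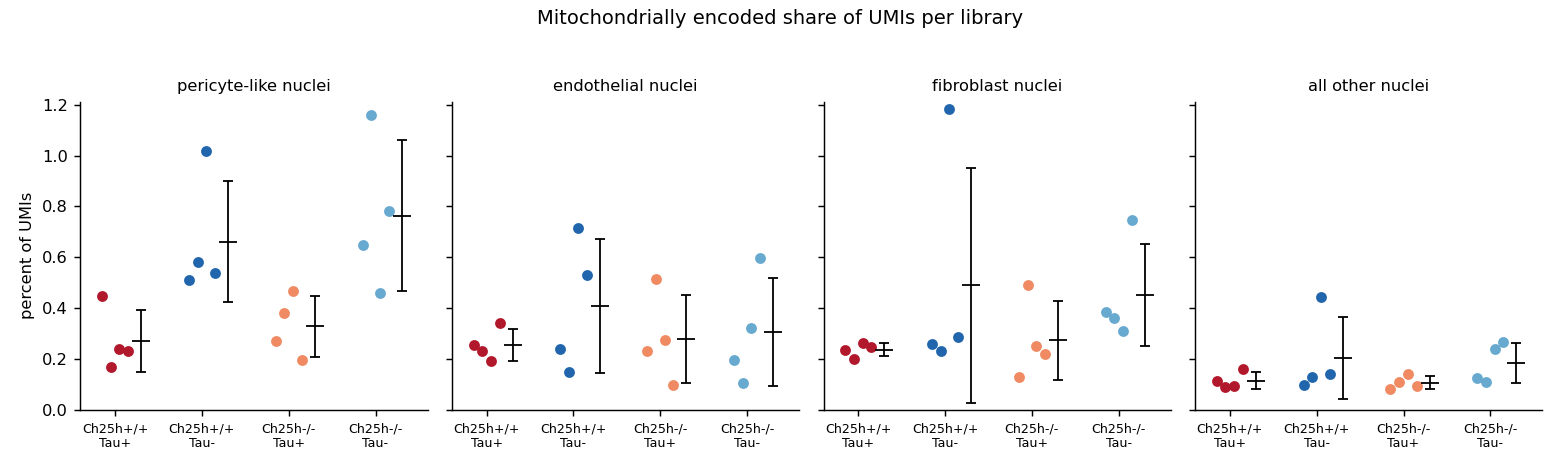
Mitochondrially encoded genes as a percent of UMIs per library in pericyte-like, endothelial, fibroblast and all other nuclei; bars are mean and SD of 4 libraries. In pericyte-like nuclei the Tau- libraries stand above the Tau+ libraries except for 1 pair, 0.458% in Ch25h-/- Tau- against 0.467% in Ch25h-/- Tau+; Ch25h+/+ Tau- replicate 3 is among the highest in every panel.

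The mean of the same share was also lower in Tau+ in other nuclei of these libraries, again given without a test. In endothelial nuclei (at least 3 UMIs of Flt1, Slco1a4, Mecom, Cldn5, Ptprb and Adgrl4) the tau difference was -0.0893 percentage points. In fibroblast nuclei it was -0.216 and in the remaining nuclei -0.0833. Ch25h+/+ Tau- replicate 3 was the highest of its group in each: 0.716% in endothelial (others 0.147 to 0.530), 1.18% in fibroblast (0.231 to 0.287) and 0.442% in remaining nuclei (0.0978 to 0.141). In fibroblast and remaining nuclei the others overlapped Ch25h+/+ Tau+ (0.201 to 0.261 and 0.0912 to 0.161). The differences in Ch25h+/+ there rested largely on that library and were not recomputed without it. The barcodes under 100 UMIs, free RNA for the most part, differed by -0.475, with group means of 1.16 to 1.78%. Ch25h+/+ Tau- replicate 3 was at 3.49% there, and the other libraries of its group at 1.08 to 1.33%. The levels that these classes start from differ. Mean shares were 0.256% in Ch25h+/+ Tau+ against 0.407% in Ch25h+/+ Tau- for endothelial nuclei, and 0.279% against 0.305% in Ch25h-/-. For the remaining nuclei they were 0.115% against 0.203% and 0.107% against 0.185%, so that differences in percentage points cannot be ranked between classes. The part of free RNA and of the higher UMI number of Tau+ pericyte-like nuclei in the result was not tested. At the level of single genes, the tau difference called 0 genes as unlike between pericyte-like and endothelial nuclei (edgeR, 58 at an unadjusted p under 0.05), with mt-Co1 at -1.27 (SE 0.398). In simulated counts this fit over 1533 genes recovered 88 of 200 genes changed 4-fold, so that 0 calls do not show that the classes were alike.

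The lists of pericyte function were tested in part, and with 0 calls among so few genes nothing is read from them. Of the 25 pericyte genes outside the rule, 14 were tested and 0 were called, where 1.25% of all genes tested were, with a median log2 fold change of -0.01 in Tau+, and 6 were above and 8 below 0. Kcnj8 had the lowest value, -0.45 (SE 0.246, edgeR adjusted p = 0.864). Of 29 vascular tone genes 15 were tested and 0 called (median 0.13), of 31 matrix genes 8 and 0 (median -0.10), and of 23 transport genes 6 and 0 (median 0.09). None of the 41 interferon-stimulated genes passed the filter on low counts in pericyte-like nuclei. Their summed level was 1008 ± 415 CPM in Ch25h+/+ Tau+, 745 ± 376 in Ch25h+/+ Tau-, 1369 ± 535 in Ch25h-/- Tau+ and 574 ± 180 in Ch25h-/- Tau- (SD, n = 4 libraries each), and Tau+ and Tau- ranges overlapped in both genotypes. No test was made on these sums.

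Over all selected nuclei, the tau difference called 2 of 4721 genes (0.0424%) with edgeR, 1 higher and 1 lower (0.0212% each). DESeq2 called 10, edgeR without the low-count filter 81, and edgeR on nuclei of 1000 or more UMIs 0, where Gfap stood at 2.80 (adjusted p = 0.0795). Gfap, the intermediate filament of reactive astrocytes, rose by 2.86 on the log2 scale (SE 0.449, edgeR adjusted p = 0.0268). Its Ch25h+/+ Tau+ libraries stood at 487, 376, 62.1 and 260.1 CPM and its Ch25h-/- Tau+ libraries at 416, 353, 180.4 and 406. The 8 Tau- libraries lay between 0 and 83, so that only Ch25h+/+ Tau+ replicate 3 overlapped them. The lower call was mt-Nd2, at -1.26 (SE 0.207), a mitochondrial gene and so part of the share the rule had capped. Its value is a description, and it was not called on nuclei of 1000 or more UMIs (-1.12) or without scored doublets (-1.21). C4b, a complement component made by reactive astrocytes, stood at 2.07 (adjusted p = 0.0538). The Gfap call was lost in 11 of the 16 fits that leave out 1 library, and 0 to 7 genes were called across them. There were 7 calls when Ch25h+/+ Tau+ replicate 3 was left out. There were 6 when Ch25h-/- Tau+ replicate 3 was. None were called without Ch25h-/- Tau+ replicate 1 or 2 or Ch25h-/- Tau- replicate 3 or 4, and 1 was called without Ch25h+/+ Tau+ replicate 2 or 4, Ch25h+/+ Tau- replicate 1, Ch25h-/- Tau+ replicate 4 or Ch25h-/- Tau- replicate 1 or 2.

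Gfap had 5 UMIs in all pericyte-like nuclei, with 11 of 16 libraries at 0. An astrocyte-like cluster of 244 nuclei was led by Gfap and C4b. Beside 0.0424% of all genes called and a median of 0.01 over them, all 8 astrocyte markers were tested in the selected nuclei, with 5 above and 3 below 0, a median of 0.31 and 1 call, Gfap. Their summed level ranged from 6058 to 13899 CPM in Ch25h+/+ Tau+ libraries and from 4310 to 10597 in Ch25h+/+ Tau-. It ranged from 6606 to 12769 in Ch25h-/- Tau+ and from 3946 to 11284 in Ch25h-/- Tau-. All 18 tested pericyte genes outside the rule were below 0 in the selected nuclei (median -0.44, 0 called). With so few calls over all genes, 0 called says nothing about a list. The part of the mixture of cell types in these values was not tested. Of the 41 interferon-stimulated genes, 6 were tested in the selected nuclei, all above 0 in Tau+ (median 0.99 against 0.01 over all genes tested) and 0 called. The low-count filter can pass a gene through the group where it is high, so this shared direction supports nothing. Members that were not tested have no direction here.

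In the selected and pericyte-like nuclei, loss of Ch25h called 0 genes with edgeR after the low-count filter and with DESeq2. Single calls appeared without that filter, and 1 in pericyte-like nuclei of Tau- libraries when replicate 3 of Ch25h-/- Tau- was left out. Over both tau states, 0 of 481 genes passed in pericyte-like nuclei with edgeR, and 22 had an unadjusted p under 0.05. In all selected nuclei 0 of 4721 passed with edgeR, and 103 had an unadjusted p under 0.05. DESeq2, on its own sets of genes, also called 0 in both. In endothelial nuclei 1 gene, Arl3, was called higher without Ch25h (0.0106% of the genes tested). Loss within Tau+ libraries and within Tau- libraries also called 0 genes with both tools, with 15 and 22 of the 481 in pericyte-like nuclei at an unadjusted p under 0.05 with edgeR. The genes with the smallest p in pericyte-like nuclei are given without being called. Actb, cytoplasmic actin, stood higher without Ch25h by 0.996 on the log2 scale (SE 0.290, edgeR adjusted p = 0.590), Mboat2 by 0.80 and Vtn by 0.49 (both adjusted p = 0.981). Ptpn9 stood at -0.74 and Carmn at -0.51 (both adjusted p = 0.874), and Zfr at -0.78 (adjusted p = 0.981). Without Ch25h-/- Tau- replicate 1, the library with the highest Vtn, its value was 0.32. The 14 tested pericyte genes outside the rule had a median of -0.03, and the 7 mitochondrial genes one of 0.22, with 0 calls in both lists.

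Other genes of the design were at the limit of counting. Mapt, which encodes endogenous tau, had 24 UMIs in pericyte-like nuclei and Prnp 32. Gm43049, a predicted gene listed from earlier results of these data, had 0 UMIs in pericyte-like nuclei. In all selected nuclei it was at 0 in the 8 Tau- libraries. It stood at 14.9, 27.4, 39.9 and 28.3 CPM in Ch25h+/+ Tau+ and at 0, 0, 11.6 and 47.3 in Ch25h-/- Tau+. Because Gm43049 was listed from these same data, its levels by tau state are a description and no independent support.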

How the data were processed

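Raw UMI counts per gene and barcode were deposited by the authors, unfiltered for nuclei; Cell Ranger 4 is named per the file headers, and Cell Ranger 3.1.0, Seurat and mm10 per the submitters' processing notes. The 10x 3' chemistry counts molecules by UMI. Nuclei, selection and endothelial nuclei followed the rules in the report. Selected nuclei were clustered with scanpy 1.11.5 (2000 variable genes, 20 components, 15 neighbours, Leiden resolution 0.8), and doublets were scored per library (142 of the 1019 selected nuclei) and kept in the main analysis. Endothelial nuclei had at most 1 rule-gene UMI. Counts were summed per library and tested with edgeR 4.0.16 (quasi-likelihood, TMM factors, low-count filter, all 4 groups in one fit), with DESeq2 1.42.0 as an alternative. DESeq2 was run on all genes with a UMI, with its own filtering, and not on the genes that passed the edgeR filter. Shares of nuclei were compared by two-sided exact permutation within strata, adjusted by Benjamini-Hochberg; median UMIs and mitochondrial percentages, which the rule used, were described. The pipeline was tested on simulated data. Named genes were those called, or where none was called the 3 higher and 3 lower with the smallest p, with members of each list at the highest level and the genes of the design; other named members were chosen after their values were seen. Members and lists were chosen with earlier results of these data known, and the pericyte-like clusters after seeing the selected nuclei. Positions are GENCODE M21. Some named-gene results are not reported here.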

Additional observations from a re-analysis of the deposited data

Results flagged for a closer look

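Of 60 groups of 4 libraries examined, 6 held a library far from the other 3, and chance flags about 1 in 20 groups. In Ch25h+/+ Tau-, replicate 3 stood apart in pericyte-like nuclei for mt-Co1 (1386 CPM, next 777), mt-Atp6 (2033, next 1035) and the mitochondrial percent of UMIs (1.02, next 0.581), and in all selected nuclei for mt-Nd2 (310.0, next 199). The same library had the highest mitochondrial share in barcodes under 100 UMIs, 3.49%, and its part in these values was not tested. In Ch25h+/+ Tau+, replicate 1 stood apart for mt-Nd4 in pericyte-like nuclei (291, next 136). In Ch25h-/- Tau+, replicate 4 alone had contractile nuclei, 2 of its 39 selected nuclei (5.13%), the other 3 libraries being at 0. Beside such libraries any value above 0 is flagged, so the rate of 1 in 20 does not apply to this flag.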

How the results depend on the processing

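No paired analysis was possible because the labels give no replicate numbers: those used here follow accession order and pair no samples. The term for replicates 1 and 2 against 3 and 4 is a split of libraries that differ in free RNA (1745236 to 3693394 against 4004191 to 4839087 UMIs in barcodes under 100 UMIs). Causes of the changes below were not tested. In all selected nuclei the tau difference over both genotypes called 10 genes with DESeq2, 81 without the low-count filter, 0 in nuclei of 1000 or more UMIs, 4 with a term for replicates 1 and 2 against 3 and 4, and 6 in pericyte-like clusters, an alternative chosen after seeing the data. Leaving out 1 library gave 0 to 7. Without the filter, Ch25h loss over both tau states called 1, the interaction 3, tau in Ch25h+/+ 29, tau in Ch25h-/- 15, and Ch25h loss 1 in Tau+ and 1 in Tau-. Tau in Ch25h+/+ called 2 in pericyte-like clusters and 0 to 1 leaving out 1 library, and tau in Ch25h-/- 2 with DESeq2 and 0 to 4. In pericyte-like nuclei, tau over both genotypes called 3 with DESeq2 and 3 to 9 leaving out 1 library. Tau in Ch25h+/+ called 1 with DESeq2 and 0 to 3, tau in Ch25h-/- called 1 by total count, 1 with the replicate term and 0 to 4. Ch25h loss in Tau+ called 1 without the filter, and in Tau- 0 to 1. In all selected nuclei, effects unlike endothelial nuclei numbered 13 for tau and 2 for Ch25h without the filter, and 0 to 1 leaving out 1 library for both. The comparison of pericyte-like with endothelial nuclei was not run under these settings.

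No difference in shares passed the test under any setting run. The selected share by tau turned to -0.0356 with 5 or more marker UMIs, -2.43 per 100 selected and endothelial nuclei and -0.0510 in pericyte-like clusters (leaving out 1 library, 0.0512 to 0.179). In Ch25h+/+ these were -0.0338, -8.43 and -0.0893 (0.115 to 0.361), and in Ch25h-/- the effect turned to 0.0504 at 1000 or more UMIs and 3.57 per 100 (-0.117 to 0.121). By Ch25h loss it turned to 0.0101 after thinning to 1000 UMIs and 7.73 per 100 (-0.219 to -0.0873). In Tau+ it turned to 13.7 per 100 (-0.318 to -0.175), and in Tau- to 0.0485 at 1000 or more UMIs, 0.000962 without scored doublets, 0.0470 after thinning and 1.73 per 100 (-0.170 to 0.0938). The contractile share by tau turned to -0.901 at 1 or more UMIs and -0.596 after thinning (-0.598 to 0.389). In Ch25h+/+ it turned to -0.660 and -0.231 (-0.776 to 0.764). In Ch25h-/- it turned to -0.0235 without scored doublets, -1.14 at 1 or more, -0.329 at 3 or more and -0.962 after thinning (-1.27 to 0.469). By Ch25h loss it turned to 0.233 at 1 or more (-1.33 to -0.263), and in Tau- to 0.474 at 1 or more and 0.0125 at 3 or more (-1.30 to 0.0327). In Tau+ leaving out 1 library gave -2.0 to 0.132.

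Median UMIs, a value the rule used and so given without a test, were by tau higher by 896 without scored doublets (897 to 1168 leaving out 1 library). By Ch25h loss the median turned to -38.2 at 1000 or more UMIs (-71.3 to 175). In Tau+ it turned to 78.1 with 5 or more marker UMIs, 200.9 without scored doublets and 177 in pericyte-like clusters (-473 to 18.5). In pericyte-like nuclei 481 genes passed the low-count filter, against 4721 in the selected nuclei. In simulated counts of the tau difference, 100 genes were changed 2-fold and another 100 were changed 4-fold. Among the 481 genes, 92 of the 100 changed 2-fold were recovered, with 5 false calls. Among the 4721 it was 52 of 100, with 11 false calls. Far fewer genes, 6 and 2, were called in the real counts. So many changed genes ease the Benjamini-Hochberg cut, most of all among 481 genes. Recovery in the real counts may therefore be lower, and these values do not compare the power of the 2 fits.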
